A study of Bos taurus with 48 samples.

Results

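GLI1, GLI3, PTCH1, SOX9, MYCN, NFIX and NFE2L2 are regulators with known parts in the embryo, and their RNA was followed here in bovine longissimus dorsi muscle from the fetus to the adult. The 7 genes were chosen by name with earlier results of these same arrays in view, namely their levels over the time course, so their levels by age are given as a description with no test. Probes were taken where the gene name, or the symbol given in parentheses in the description, was that of 1 of the 7 genes. The rule found 8 probes of 6 genes among 21475 probes. PTCH1 had no probe by symbol, and 1 probe was found for it through its gene number, which makes 9. Of these 9 probes, 8 passed the filter on dim values, as did 14693 genes or unnamed features in all.

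The study hybridised 48 Agilent arrays with 2 colours, which gives 96 channels of 35 animals and 26 conditions. Fetal muscle was taken at 60, 135 and 195 days of gestation, newborn muscle at 280 days, and post-natal muscle at 3, 7, 12, 20, 25 and 30 months, each from Piedmontese × Hereford and Wagyu × Hereford cattle, called Piedmontese and Wagyu below. Belmont Red cattle on a diet for weight loss (restricted) or weight growth (growth) were sampled at times 0, 1 and 2 of a feeding trial. The paper describes this trial as one of nutritional deprivation and re-alimentation in adults. The labels do not say to which phase each time belongs. Each array set 1 cross against the other, or 1 diet against the other, and the dyes were swapped between arrays. Both crosses share a Hereford parent. At 60 days each cross is 1 fetus, measured on 3 arrays, so the crosses have no replicate there. The other fetal groups hold 2 or 3 animals, the newborn groups 3 and the post-natal groups 4, except that Wagyu at 12 months are 2 animals of which 1 was on 3 arrays. The 5 Piedmontese and 4 Wagyu post-natal animals count once each. They were biopsied repeatedly, except Piedmontese animal 4, which was sampled at 7 months alone. A pair of Piedmontese samples at 195 days carry codes that differ in the last letter alone. They were counted as 2 fetuses, which the labels do not settle. The diet groups hold 4 and 4 animals at time 0, 3 restricted and 4 growth at time 1, and 2 and 2 at time 2. A biopsy is a piece of whole muscle, in which fewer cells of a type and less RNA per cell cannot be told apart.

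Hedgehog proteins are secreted signals. They bind the receptor PTCH1, which otherwise holds back the membrane protein SMO, and the signal ends on the GLI transcription factors: GLI1 is mainly an activator and itself a target of the pathway, and GLI3 is cut to a repressor when no signal is present. In the embryo the pathway acts on the somites, from which skeletal muscle arises. SOX9 is the master factor of cartilage formation, and MYCN is a member of the MYC family that drives growth of dividing progenitor cells. NFIX directs the switch from embryonic to fetal muscle genes, and NFE2L2, also known as NRF2, activates genes against oxidative stress.

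The probes are 60 bases long, and the identity of each rests on its sequence, so the first 30 bases of those that carry the results are given 5′ to 3′ as on the array, all in lower case. The 2 NFIX probes share no run longer than 7 bases, which makes them separate readings of the gene, and the GLI1 probe, at 30% G and C, has the lowest G and C content of the set.
GLI1: acacagtctaaatatatttggggaggaatt
GLI3: tctagggagaaactgtcttccatttcagtt
SOX9: gagcagggtcagcccactgacaaactttaa
MYCN: acagcggttgaagcctgtgaccgttgggag
NFIX A_73_106741: aaagcgtccttctttgagccagacgccaac
NFIX A_73_110122: acatcccgtcccggccttctggggaaggag
NFE2L2: gtttagctctggcaaaagacaatttagttg

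The names are not all settled. The GLI1 probe is described as GLI1, but the gene number it carries belongs to ARHGAP9 in the RefSeq table, so what is called GLI1 here is the probe so described. A further probe carries the gene name SOX9 and the description SOX10, and it was well above background in 0 of 96 channels (log2 level 6.57 to 6.67 over the 10 ages). SOX9 below is the other probe. The RefSeq table matched 16733 of the 21475 probes by transcript, gene number or symbol.

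Levels are normalised log2 intensities after background correction, with the dye effect of the gene removed, so a difference of 1 is a factor of 2. The levels of 2 probes are not compared with each other. Channel medians over all features lay between 9.11 and 9.23, and 49.9 to 76.4% of the spots of a channel were well above background by the scanner's own flag, which is what detected means below. No member spot was saturated.

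SOX9 and NFE2L2 were detected in all 96 channels, GLI3 in 95, NFIX in 95 and 94, MYCN in 85, GLI1 in 79 and PTCH1 in 45. Before birth GLI1, GLI3, MYCN and SOX9 were detected in 18 of 18 channels. After birth GLI3 and SOX9 were still detected in 48 of 48, whereas GLI1 was detected in 37 and MYCN in 38. NFIX, dim in the fetus, was detected in 17 and 16 of 18 fetal channels and in all 48 post-natal ones. PTCH1 was detected in 14 fetal, 1 newborn, 17 post-natal and 13 diet channels, so it lay near the background throughout.

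**Figure D1:**
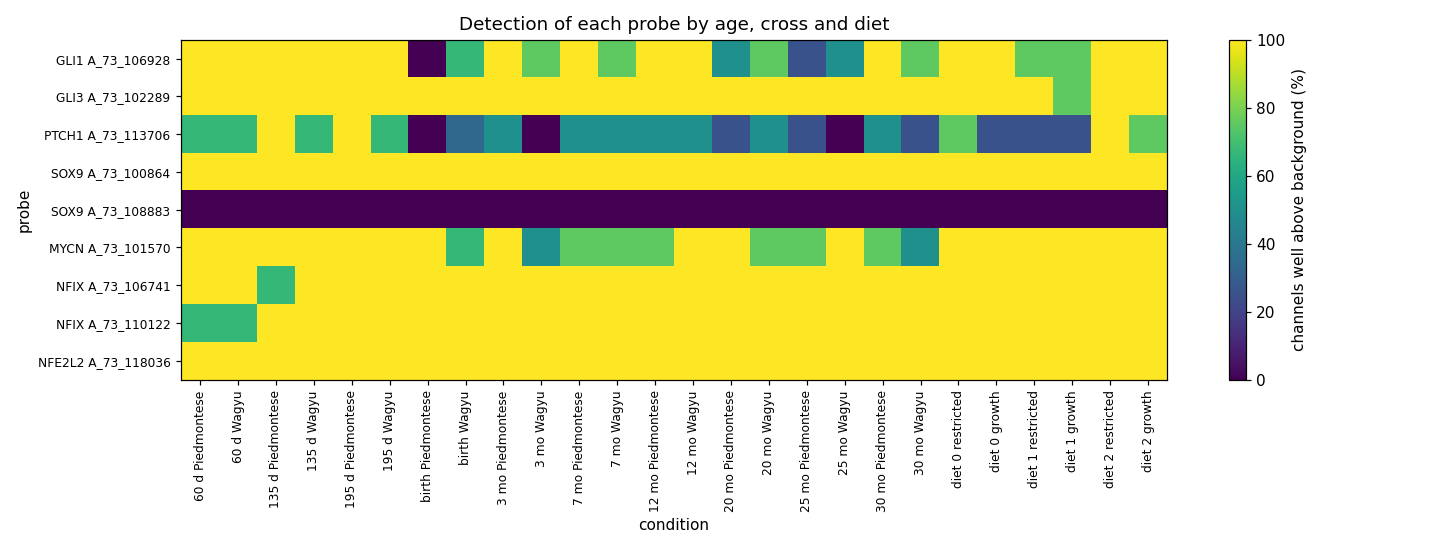
Share of channels (%) in which each probe was well above background, with probes as rows and the 26 conditions as columns. The GLI1 row drops to 0 of 3 channels in Piedmontese newborns, the probe named SOX9 but described as SOX10 is at 0 in every condition, and PTCH1 is patchy at all ages.

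One fetal sample stands apart. In Piedmontese fetus 5 at 135 days all 8 skeletal muscle markers were below the other 4 fetuses of that age. Its mean level over the 8 markers was 10.27, against 13.45 to 16.31 in the other 11 fetuses. ACTA1, the actin of the muscle fibre, was at 10.44 there and at 16.23 to 17.59 in the others, and TNMD, a tendon gene, at 8.29 and at 9.59 to 16.38. The collagens COL1A1 (16.35) and COL3A1 (16.72) were not low in it. The sample is 1 channel, and the results it moved are also given without it.

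In the whole time course the 7 genes fell into opposite groups, which goes against a common embryonic label. GLI1, GLI3, MYCN and SOX9 were high in the fetus and low from birth on, NFIX and NFE2L2 were low in the fetus and high from birth on, and PTCH1 changed little. Between the 12 fetuses and the 9 post-natal animals the difference was 3.25-fold for GLI1, 4.18-fold for GLI3, 3.74-fold for MYCN and 3.67-fold for SOX9, all higher before birth. NFIX was 1.90-fold and 1.88-fold higher after birth by its 2 probes, and NFE2L2 2.27-fold higher. In these 7 probes no post-natal animal overlapped with any fetus, and for PTCH1 the animals overlapped. The background for this contrast is wide: of the 14693 features, 74.8% differed between the stages at an adjusted p under 0.05 (limma), and 36% were lower after birth. No overlap between animals was found in 40.9% of features in either direction, and 19.6% were lower after birth with no overlap. The members were named from the time course, so nothing is read from their own counts. The share of all features with a still lower difference was 2.56% for GLI3, 3.36% for MYCN, 3.5% for SOX9 and 4.53% for GLI1. It was 39.5% for PTCH1, 86.3 and 86.6% for NFIX and 90.6% for NFE2L2. These shares only place the members and are no test, since they rest on the levels by which the members were chosen.

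**Figure D2:**
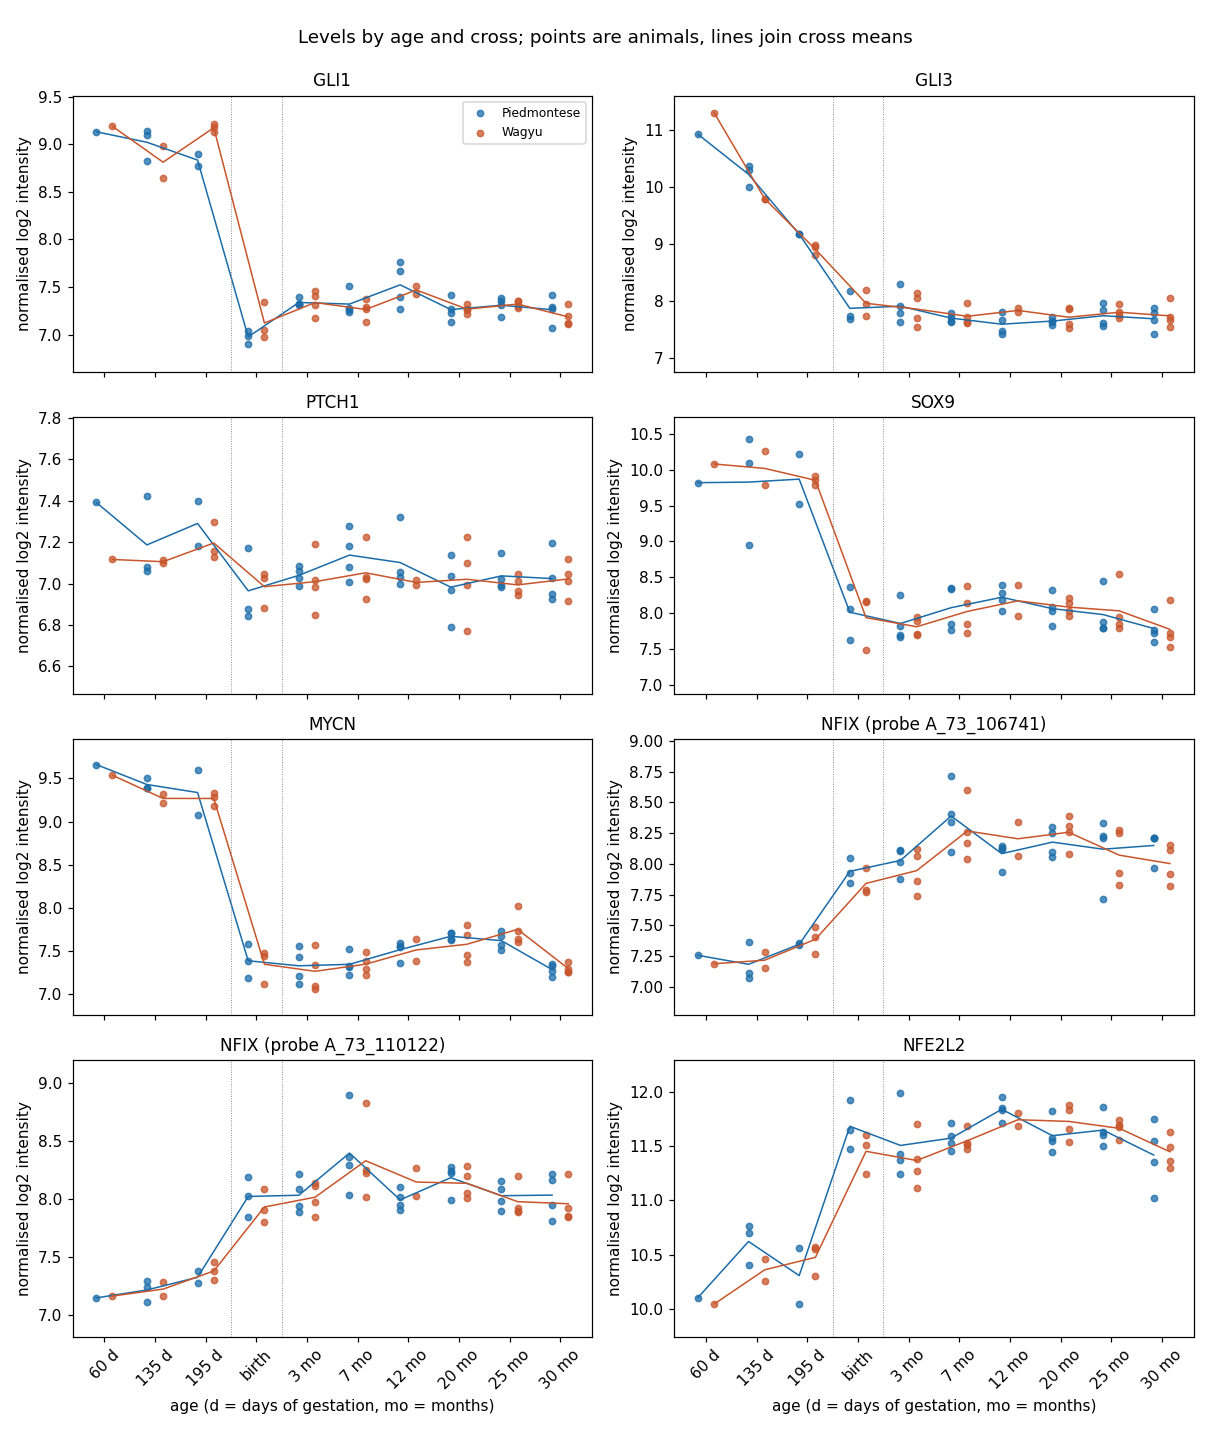
Normalised log2 intensity of each member probe (vertical axes, each with its own range) by age from 60 days of gestation to 30 months, with 1 point per animal and lines through the means of each cross. GLI3 steps down at every sampling to birth, GLI1, MYCN and SOX9 are high up to 195 days and low at birth, and NFIX and NFE2L2 are higher from birth on.

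GLI3, the effector that can act as a repressor, fell at each sampling up to birth. At 60 days the 2 fetuses were at 10.93 and 11.30. At 135 days the 5 fetuses lay between 9.79 and 10.36, with a mean of 10.05 ± 0.27 (SD, n = 5), and at 195 days they were at 8.80, 8.94, 8.98, 9.17 and 9.17. The means of successive ages were 1.06 and 1.04 apart, and no fetus of 1 age overlapped with a fetus of the next. The share of all features that separate so between single ages is not given, here or for the members below. Nothing is therefore read from such separations. The 6 newborns were between 7.68 and 8.18 with a median of 7.85, below every fetus. From then on the means stayed between 7.67 and 7.88, and neighbours in the order of the post-natal ages did not differ by more than their SD. The mean at 60 days was 9.20 times that at birth and 10.6 times that at 30 months. The fetal and newborn arrays lay on 3 slides with 1 array of each age. Each age held the same position on every slide, so position and age cannot be told apart. GLI3 fell at each of the 3 steps on all 3 slides. It went from 11.12 to 7.71 on the first, from 11.11 to 8.18 on the second and from 11.12 to 7.85 on the third. Without Piedmontese fetus 5 the mean at 135 days was 9.97 ± 0.24 (SD, n = 4).

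GLI1, the activator and target of the pathway, held its level through gestation and was lowest at birth. The 2 fetuses of 60 days were at 9.13 and 9.19. Those of 135 days were at 8.64, 8.82, 8.98, 9.10 and 9.14, and those of 195 days at 8.77, 8.90, 9.13, 9.18 and 9.21. Neighbours in the order of the 3 fetal means did not differ by more than their SD. The 6 newborns lay between 6.91 and 7.34 with a median of 7.01. On the 3 slides newborn minus 195 days was -1.96, -2.10 and -1.78. None of the 3 Piedmontese newborn channels was well above background, so GLI1 was at least 3.62-fold lower there than at 195 days, with measured means of 6.98 and 8.83. From 3 months to 30 months the means were 7.22 to 7.50, all above the newborn mean of 7.05 ± 0.15 (SD, n = 6), although the ranges of 30 months and birth overlapped.

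PTCH1, the receptor and a classical readout of the pathway, was close to the background at all ages. Its means ran from 7.25 ± 0.19 (SD, n = 2) at 60 days to 6.97 ± 0.13 (n = 6) at birth, and neighbours in the order of the 10 ages did not differ by more than their SD. On each of the 3 slides the newborn mean was below that of 195 days, by 0.29, 0.24 and 0.22. The highest of the 5 fetuses of 135 days, at 7.42, was Piedmontese fetus 5, and without it the mean there was 7.09 ± 0.02 (SD, n = 4) in place of 7.15 ± 0.15. None of the 3 Piedmontese newborn channels was well above background, and PTCH1 was at least 1.25-fold lower there than at 195 days, with measured means of 6.96 and 7.29.

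Other genes of the hedgehog pathway were taken from lists and tested between the stages with limma. Among the receptors and co-receptors, CDON, a co-receptor that also promotes myoblast fusion, fell by 1.41 on the log2 scale (SE 0.18, adjusted p = 4.77e-07). SMO, the signalling component, fell by 0.29 (SE 0.05, adjusted p = 1.42e-05) and HHIP, a decoy receptor, by 0.17 (adjusted p = 0.0376). SMO and HHIP did not pass when each array was centred on its median (adjusted p = 0.291 and 0.939), and HHIP did not pass without Piedmontese fetus 5 (adjusted p = 0.0583). Of the 9 target genes tested, 6 were lower, 1 was higher and 2 did not pass. SFRP1, a secreted Wnt antagonist, fell by 4.05 (SE 0.24, adjusted p = 2.73e-12), CCND1 and CCND2, cyclins of the G1 phase, fell by 2.73 and 1.34, MYF5, an early myogenic factor, fell by 0.96 (SE 0.21, adjusted p = 0.000283), and BCL2, which blocks cell death, rose by 0.46. The median of the target list was -0.75, beside 0.02 over all features.

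The transducers and the ligands were mixed. Of 15 tested transducers between SMO and the GLI factors, 3 rose, 6 fell and 6 did not pass, with a median of -0.08. SPOP, an adaptor for GLI breakdown, rose by 0.63 (SE 0.06, adjusted p = 2.74e-09) and GSK3B, a kinase that primes GLI for cutting, by 0.54. EVC2 and IFT88, both needed at the primary cilium where the signal is relayed, fell by 0.99 and 0.89, and SUFU, which binds and retains GLI, by 0.80 (SE 0.13, adjusted p = 1.60e-05). Of 6 genes for ligands and their release 3 could be tested. DISP1, which releases hedgehog from the cell, rose by 1.95 (SE 0.23, adjusted p = 1.05e-07) and SCUBE2 by 0.58. DHH, the third, did not pass (difference 0.00, SE 0.05). SHH itself was detected in 0 of 96 channels and IHH in 11.

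SOX9 behaved like GLI1 in time. The 2 fetuses of 60 days were at 9.82 and 10.08, the 5 of 135 days at 8.95, 9.78, 10.09, 10.26 and 10.43, and the 5 of 195 days at 9.52, 9.79, 9.86, 9.91 and 10.21. The value of 8.95 is Piedmontese fetus 5, and the next lowest of all fetuses was 9.52. Newborns lay between 7.49 and 8.36 with a median of 8.10, below every fetus, and the post-natal means were 7.78 to 8.20. Neighbours in the order of the 7 ages from birth on did not differ by more than their SD. Newborn minus 195 days was -2.14, -1.96 and -1.38 on the 3 slides. Without fetus 5 the mean at 135 days was 10.14 ± 0.28 (SD, n = 4) in place of 9.90 ± 0.58, and the difference of post-natal from prenatal levels was -1.96 in place of -1.88.

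Cartilage genes that SOX9 is known to activate were also lower after birth, with a wide spread between fetuses. Of the 7 tested of 9 listed, 6 fell and COMP did not pass (difference 0.89, SE 0.53, adjusted p = 0.132). COL11A1 fell by 4.01 on the log2 scale (SE 0.66, adjusted p = 1.29e-05). COL2A1, the main collagen of cartilage, fell by 3.75 (SE 0.79, adjusted p = 0.000199), and in both the animals overlapped between the stages. COL9A1 fell by 1.70 (SE 0.50, adjusted p = 0.00449). At 135 days COL2A1 was at 8.70 in fetus 5 and at 11.36 to 13.74 in the other 4, and fetus 5 was the lowest of the 5 also in SOX9, COL11A1, COL11A2, COMP, MKX and TNMD. It was not low throughout, since it was the highest in COL9A2 (10.31 against 7.49 to 8.22) and the third in COL9A1 (9.20), and its ACAN level of 7.76 was the second lowest. Without it the same counts passed, and the differences were -4.23 for COL11A1 (adjusted p = 4.88e-06), -3.98 for COL2A1 (adjusted p = 9.64e-05) and -1.63 for COL9A1 (adjusted p = 0.00753). The mean over the cartilage list ran from 7.68 to 11.43 among the 12 fetuses and from 6.95 to 8.25 among the 9 post-natal animals. Of other SOX genes, SOX4 fell by 3.37 (SE 0.13, adjusted p = 2.87e-15), SOX11 by 2.55 and SOX8 by 2.53, and SOX6 and SOX5, partners of SOX9 in cartilage, rose by 0.51 and 0.29. All 5 tested SOX genes passed.

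MYCN, like GLI1 and SOX9, was high up to 195 days. The 2 fetuses of 60 days were at 9.54 and 9.66, the 5 of 135 days at 9.21, 9.32, 9.39, 9.39 and 9.51, and the 5 of 195 days at 9.08, 9.18, 9.28, 9.34 and 9.60. The 60-day mean was 0.23 above that of 135 days, and 135 and 195 days did not differ by more than their SD. Newborns were between 7.12 and 7.59, and newborn minus 195 days was -2.01, -1.95 and -1.71 on the 3 slides. After birth the levels were not flat: the mean was 7.30 at 3 months, 7.69 ± 0.15 (SD, n = 8) at 25 months and 7.29 ± 0.05 (n = 8) at 30 months. The same 8 animals were sampled at these last 2 ages. They were at 7.51 to 8.02 at 25 months and at 7.20 to 7.37 at 30 months, without overlap. MYCN was detected in 7 of 8 channels at 25 months and in 5 of 8 at 30 months. The share of all features that separate in this way is not given here. Both ages share 2 slides, and within these the means were 7.69 against 7.28 and 7.68 against 7.31. Each age held the same positions on both slides, so position and age cannot be told apart.

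The genes around MYCN split. MYC, its better known relative, fell by 1.28 (SE 0.19, adjusted p = 3.10e-06) and MXD3, an antagonist made in cycling cells, by 1.61. MAX, the shared partner, rose by 0.93 (SE 0.08, adjusted p = 8.32e-10), MLX, a partner of the glucose-sensing branch, by 1.06, and MLXIP, its glucose sensor, by 4.25 (SE 0.11, adjusted p = 8.94e-18). Of the 10 tested genes of this network 6 rose, 2 fell and 2 did not pass. Of 12 tested MYC targets 3 rose, 8 fell and 1 did not pass, with a median of -0.66. The nucleolar protein NPM1 fell by 1.66 (SE 0.17, adjusted p = 1.57e-08), CAD, of pyrimidine synthesis, fell by 1.53, and NME1, a nucleotide kinase, fell by 1.33. With median centring 5 of the 12 fell. LDHA, lactate dehydrogenase and also a gene of the mature glycolytic fibre, rose by 1.99 (SE 0.37, adjusted p = 5.59e-05).

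NFIX was the reverse of GLI3, GLI1, SOX9 and MYCN, and both of its probes gave the same course. By A_73_106741 the fetuses were at 7.19 and 7.26 at 60 days, 7.07, 7.11, 7.15, 7.28 and 7.36 at 135 days, and 7.27, 7.34, 7.35, 7.40 and 7.49 at 195 days. By A_73_110122 the fetal values were 7.12 to 7.46. By A_73_106741 the mean of 195 days was 0.15 above that of 60 days. The 6 newborns were at 7.77 to 8.05 and 7.80 to 8.19, above every fetus. The highest means were those of 7 months, 8.33 ± 0.24 (SD, n = 8) and 8.36 ± 0.33 (n = 8), but they exceeded those of 20 months by less than the SD. Within the 3 slides newborns were above 195 days by 0.38 to 0.64 and by 0.42 to 0.77. The 2 probes correlated at r = 0.982 over the 26 condition means, a description of conditions that share slides and the step at birth.

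The other NFI genes did not all go with NFIX. NFIC rose by 2.41 (SE 0.19, adjusted p = 2.38e-10), whereas NFIB fell by 1.19 (SE 0.07, adjusted p = 2.14e-12) and NFIA by 0.57 (SE 0.10, adjusted p = 2.75e-05), although with median centring NFIA stood at 0.05 (adjusted p = 0.828). Of 4 genes listed as responding to NFIX in fetal muscle, whether up or down, 3 could be tested. CKM, the creatine kinase of muscle, rose by 3.45 (SE 0.78, adjusted p = 0.000399) and ENO3, the muscle enolase, by 1.46 (SE 0.58, adjusted p = 0.0271). MYH7, the slow myosin heavy chain, was the third and did not pass (difference 1.32, SE 0.63, adjusted p = 0.0613), but all 3 passed with median centring and without Piedmontese fetus 5.

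NFE2L2 had the largest measured rise among the members, though NFIX, the other member that rose, was dim in the fetus. The 2 fetuses of 60 days were at 10.05 and 10.10, those of 135 days at 10.26, 10.40, 10.46, 10.70 and 10.76, and those of 195 days at 10.05, 10.30, 10.55, 10.56 and 10.57. The means of 195 and 60 days were 0.33 apart, more than the SD, with overlap. The newborns were at 11.25 to 11.92 with a median of 11.55, above every fetus. Post-natal means were 11.43 to 11.80, highest at 12 months, and neighbours in the order of the 7 ages from birth on did not differ by more than their SD. Newborns were above 195 days by 1.07, 1.31 and 1.01 on the 3 slides.

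The partners and regulators of NFE2L2 were higher after birth too. All 7 tested of 8 listed rose, by 0.47 to 2.69 with a median of 1.33. MAFF, a small MAF protein that pairs with NFE2L2, rose by 2.69 (SE 0.13, adjusted p = 1.08e-13), and KEAP1 and CUL3, which together mark NFE2L2 for breakdown, rose by 1.97 (SE 0.10, adjusted p = 3.46e-13) and 1.40. Its 15 tested target genes were mixed, with 5 up, 4 down and 6 that did not pass, and a median of 0.08, which became 8 up and 2 down with median centring. NQO1, a quinone reductase, went from 8.97 to 11.47 (SE of the difference 0.32, adjusted p = 3.78e-07), GCLM, of glutathione synthesis, rose by 2.15 and ME1, the malic enzyme, by 1.33. The enzymes of the pentose phosphate pathway PGD, TKT and TALDO1 fell by 1.58, 1.31 and 0.83.

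**Figure D3:**
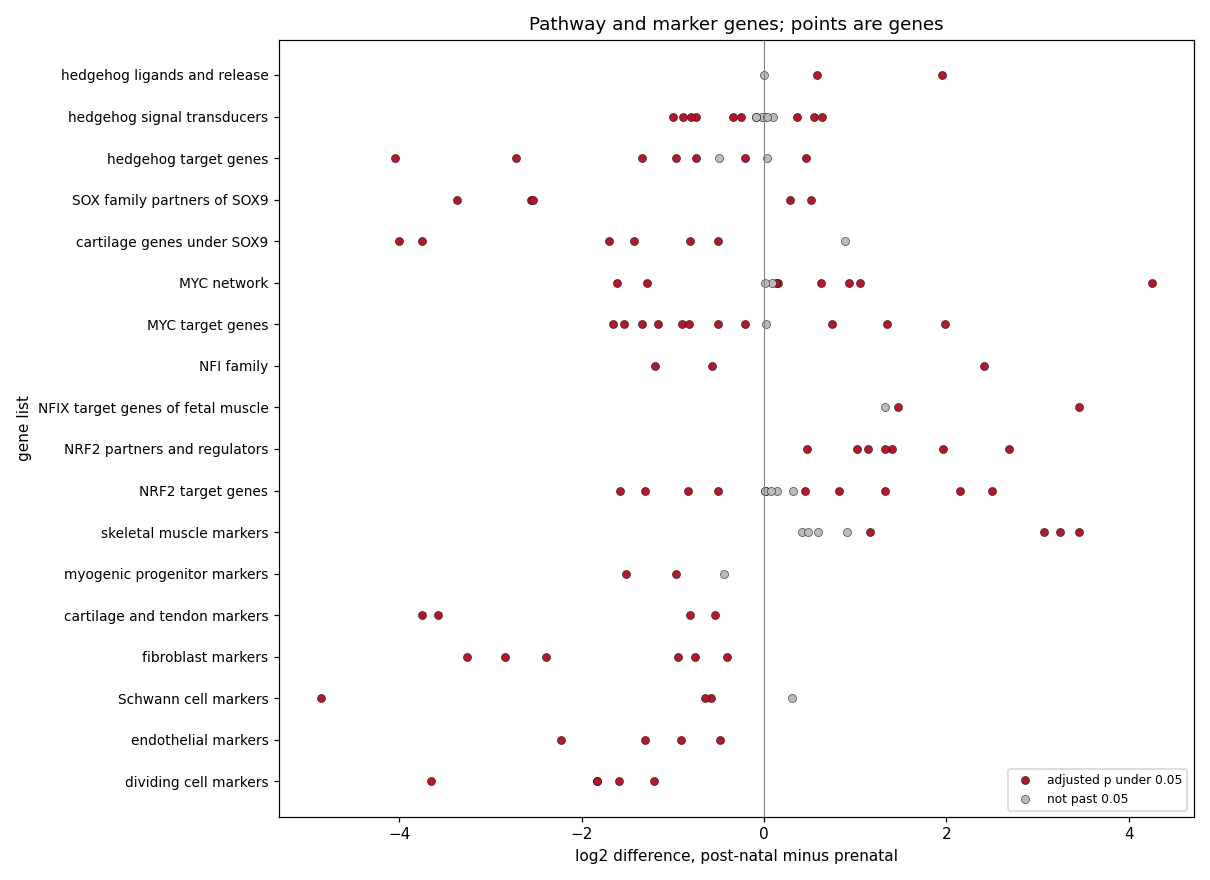
Log2 difference, post-natal minus prenatal, of each gene of the pathway and marker lists other than the hedgehog receptors, with 1 point per gene and red for an adjusted p under 0.05. All 7 partners of NFE2L2 lie to the right, all 6 fibroblast markers to the left, and the hedgehog, MYC and NRF2 target lists spread to both sides.

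RNA of cell type markers moved with the same contrast. All 6 fibroblast markers, all 5 tested markers of dividing cells, all 4 endothelial markers and all 4 tested cartilage and tendon markers were lower after birth. The mean over the fibroblast list was 12.38 to 13.30 in fetuses and 10.81 to 11.61 in post-natal animals, and that over the dividing cell list 8.53 to 10.22 and 7.00 to 7.34. Of 5 Schwann cell markers 4 could be tested and 3 fell, led by ERBB3, a neuregulin receptor, which fell by 4.86 (SE 0.40). Of 8 skeletal muscle markers 4 rose and 4 did not pass, with and without Piedmontese fetus 5. SOX10, which defines Schwann cells, was detected in 0 of 96 channels and SCX, which defines tendon cells, in 1. The probe with the gene name SOX9 and the description SOX10 falls under SOX10 here, and its name is not settled. The part of these cells in the levels of the members was not tested. Prenatal and post-natal arrays lay on different slides, so slide and stage cannot be told apart in that contrast. Newborns and fetuses shared slides as given above, but each age held the same position on every one of them. Position on the slide and age cannot be told apart there.

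The crosses were compared to ask whether breed type moved these genes at the same age. No member passed the test between Piedmontese and Wagyu before, at or after birth. Of all 14693 features 0% passed in each of the 3 comparisons (limma), while 482, 979 and 791 had an unadjusted p under 0.05, none of them a member. Before birth the largest member difference was that of GLI3, where Piedmontese fetuses were higher by 0.22 (SE 0.11, 95% interval -0.03 to 0.47, adjusted p = 0.999). At birth it was that of NFE2L2, higher in Piedmontese by 0.23 (SE 0.16, 95% interval -0.16 to 0.62, adjusted p = 0.808). After birth the members differed by -0.07 to 0.10, and the widest 95% interval, that of NFIX by A_73_110122, ran from -0.17 to 0.36.

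The sign of the GLI3 and GLI1 differences was not the same at each fetal age, and this was not tested. At 135 days 1 Wagyu fetus, and at 195 days 1 Piedmontese fetus, was on 2 of the 3 arrays. The arrays of an age are therefore not independent. GLI3 was lower in the Piedmontese fetus on 3 of 3 arrays at 60 days (mean -0.38, the same 2 animals each time), higher on 3 of 3 at 135 days (mean 0.43, and 0.35 over the 2 arrays without Piedmontese fetus 5) and higher on 3 of 3 at 195 days (mean 0.26). GLI1 was higher in Piedmontese on 3 of 3 arrays at 135 days (mean 0.27) and lower on 3 of 3 at 195 days (mean -0.36). Over all 36 developmental arrays Piedmontese was the higher on 16 arrays for GLI1 and GLI3, 18 for SOX9 and NFE2L2, 19 and 18 for NFIX, 21 for MYCN and 25 for PTCH1. The lowest array difference of SOX9, -1.04, is that of Piedmontese fetus 5, and the SOX9 mean at 135 days was -0.27 with it and 0.11 without it.

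**Figure D4:**
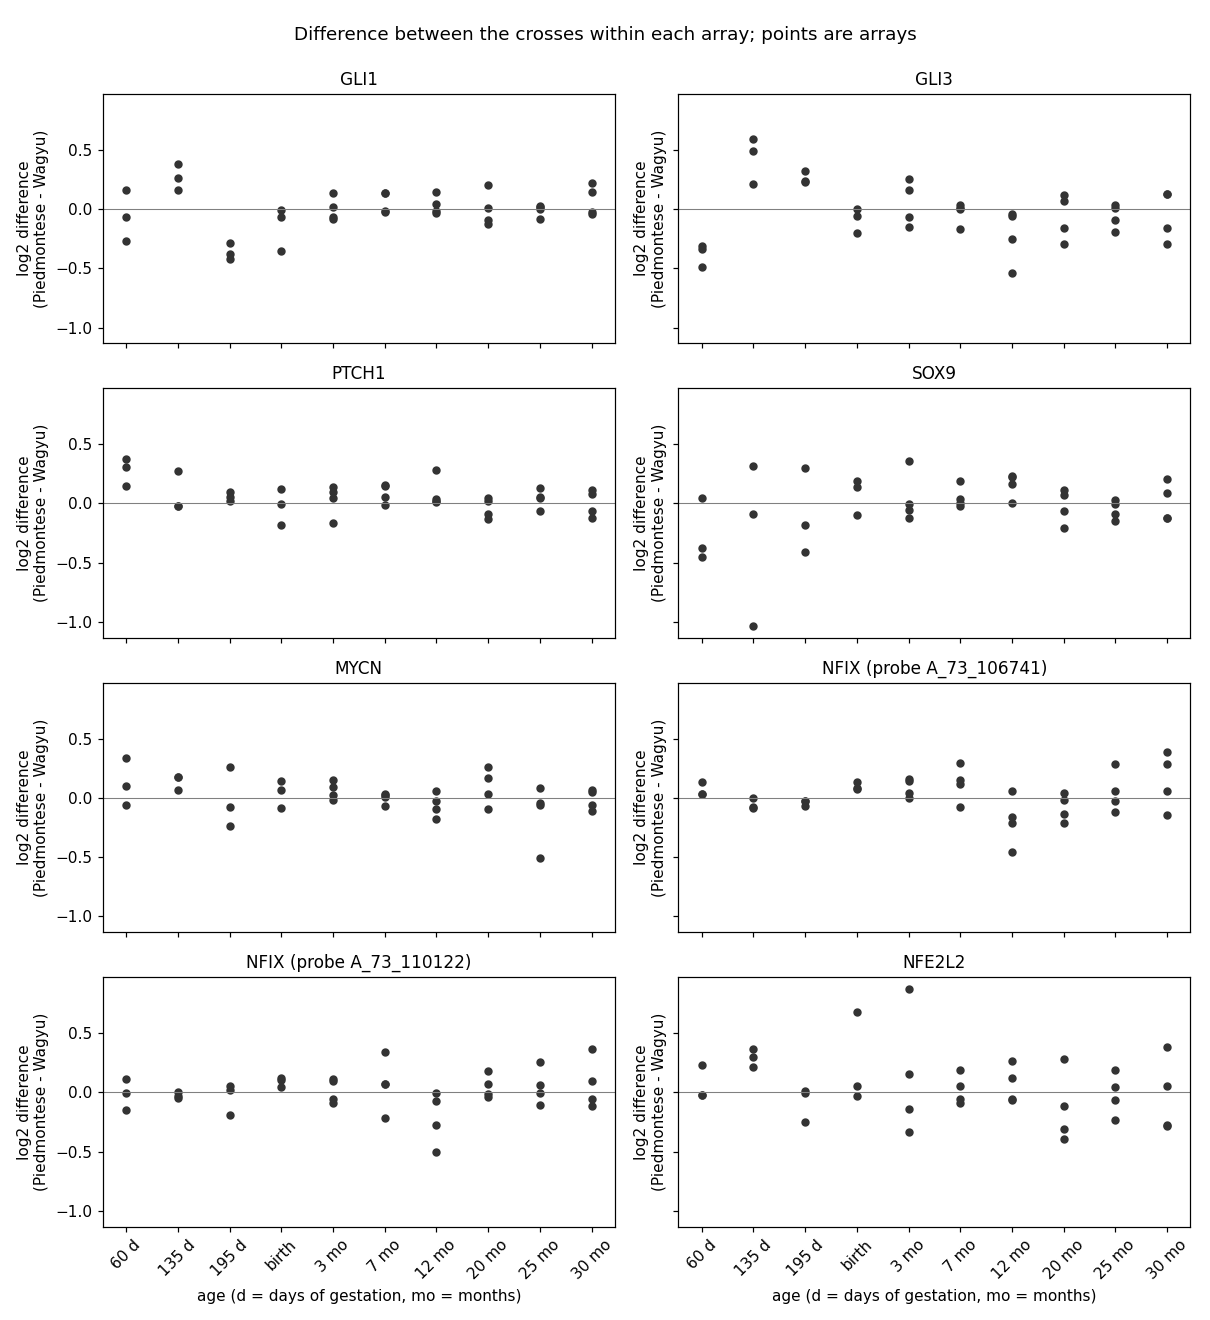
Log2 difference between the crosses (Piedmontese minus Wagyu) within each of the 36 developmental arrays, by age, with 1 point per array and 1 panel per probe. Points scatter around 0 for most genes, GLI3 lies below 0 at 60 days and above it at 135 and 195 days, and the lowest SOX9 point at 135 days is -1.04.

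The diet groups were compared at each time to ask whether the members differed between them in grown cattle. No member passed at any time or in the change from time 0 to time 1. Of all features 1.11% passed at time 0, 15.1% at time 1, 0% at time 2 (967 at an unadjusted p under 0.05, GLI3 among them) and 10.9% in the change. Over the 3 times the means of all animals were 7.24 to 7.40 for GLI1, 7.42 to 7.75 for GLI3, 7.64 to 7.85 for SOX9, 7.29 to 7.43 for MYCN, 7.85 to 7.98 and 7.75 to 8.02 for NFIX and 11.55 to 11.82 for NFE2L2. The lowest of these lay below the lowest post-natal means of the time course in GLI3 (7.67) and SOX9 (7.78). The same held for NFIX by both probes, with a lowest post-natal mean of 7.99 by A_73_106741. The highest diet mean of NFE2L2 lay just above its highest post-natal mean (11.80). PTCH1, near the background, had diet means of 6.99 to 7.10, with a lowest post-natal mean of 7.00. Breed, trial and slides differ between the diet cattle and those of the time course, and these cannot be told apart.

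MYCN had the lowest adjusted p of a member, in the change. With the array as a block, NFIX by A_73_110122 was lower there (adjusted p = 0.0936, and 0.146 for MYCN). From time 0 to time 1 MYCN rose in each of the 4 growth animals, by 0.36, 0.32, 0.30 and 0.27. In the 3 restricted ones MYCN changed by -0.21, -0.37 and 0.21. The groups did not overlap, which holds for 28.5% of all features, and the difference was -0.44 (SE 0.15, 95% interval -0.79 to -0.08, adjusted p = 0.105). At time 0 the restricted animals were at 7.29, 7.37, 7.45 and 7.54 and the growth animals at 7.12, 7.13, 7.28 and 7.34, so the order at the start was the reverse of that in the change. Without restricted animal 4 the difference was -0.60 with an adjusted p of 0.0415.

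NFIX was also lower in restricted animals at time 1, short of the threshold. By A_73_110122 the restricted animals were at 7.47, 7.77 and 7.78 and the growth animals at 7.80, 7.83, 7.95 and 8.37, and by A_73_106741 at 7.63, 7.83 and 7.86 against 7.91, 7.92, 7.95 and 8.35. Neither probe overlapped, as is so for 30.5% of features, and the differences were -0.31 (SE 0.16, adjusted p = 0.233) and -0.25 (SE 0.14, adjusted p = 0.245). The change from time 0 did not overlap by A_73_110122 (difference -0.38, SE 0.15, adjusted p = 0.138), as for 28.5% of features, but did by A_73_106741 (difference -0.28, SE 0.16, adjusted p = 0.268), where restricted animals changed by -0.25 to 0.06 and growth animals by 0.03 to 0.48. At time 2 the same probes differed by 0.08 and -0.05, with 95% intervals from -0.22 to 0.38 and from -0.42 to 0.31.

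None of the remaining members passed after adjustment, although in GLI3 at time 2 and PTCH1 at time 0 the diets did not overlap. At time 0 SOX9 was at 7.33, 7.55, 7.66 and 7.85 in restricted and at 7.56, 7.95, 8.37 and 8.53 in growth animals, a difference of -0.51 (SE 0.22, adjusted p = 0.303). PTCH1 was at 7.09 to 7.48 and 6.91 to 7.05 there, without overlap, as for 10.1% of features, with a difference of 0.25 (SE 0.11, adjusted p = 0.292), and restricted was the higher on 4 of 4 arrays. GLI3 at time 2 was at 7.44 and 7.45 in the 2 restricted and at 7.89 and 7.89 in the 2 growth animals, a difference of -0.45 (SE 0.12, 95% interval -0.74 to -0.15, adjusted p = 0.629). Restricted was the lower on 4 of 4 arrays, but these arrays pair the same 2 and 2 animals with each other and are not separate evidence. At time 2, 33.2% of features did not overlap. GLI1 differed by 0.08, -0.02 and -0.17 at the 3 times and NFE2L2 by -0.01, 0.21 and -0.10.

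**Figure D5:**
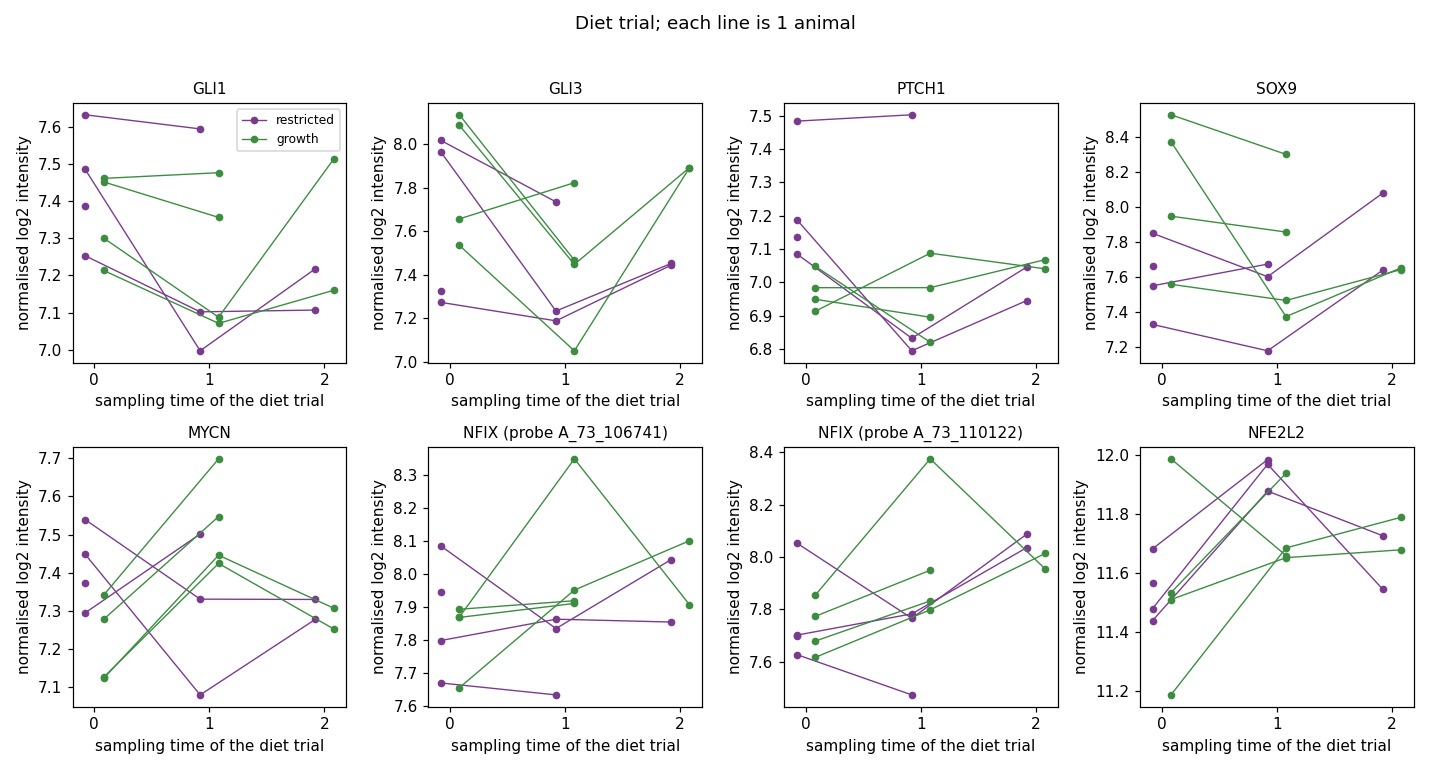
Normalised log2 intensity of each member probe at times 0, 1 and 2 of the feeding trial, with 1 line per animal, purple for restricted and green for growth. The 4 MYCN lines of growth animals rise from time 0 to time 1, and the restricted NFIX points lie below the growth points at time 1.

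Genes of the lists were also compared between the diets. At time 1, 32 of the 123 tested passed (26%, beside 15.1% of all features), 4 higher and 28 lower in restricted animals. The muscle actin ACTA1 was lower by 6.10 (11.77 against 17.86, SE 0.26, adjusted p = 0.000377), the collagens COL3A1 and COL1A1 were lower (differences -4.44 and -4.24), as were LDHA (-2.80) and ENO3 (-2.47). Of the 8 skeletal muscle markers 5 were lower, 1 was higher and 2 did not pass, the higher one being DES, the muscle intermediate filament (1.34, SE 0.24, adjusted p = 0.0150), which was also higher in the change (1.65). In the change from time 0 to time 1, 25 passed (20.3%, beside 10.9% of all features), 7 higher and 18 lower. MYC changed by 1.31 in restricted and by -1.69 in growth animals, a difference of 3.00 (SE 0.67, adjusted p = 0.0326). ACTA1 (-5.49), COL3A1 (-4.88), LUM, a matrix proteoglycan (-2.85), and TOP2A, of dividing cells (-2.62), had the largest differences the other way. Of all features passing at time 1, 1150 were higher and 1065 lower in restricted animals, and 1976 and 622 with median centring. The mean over the fibroblast list at time 1 was 9.30 to 9.87 in restricted and 11.02 to 12.26 in growth animals, and that over the muscle list 15.16 to 15.40 and 16.58 to 17.36. These shifts stand beside the MYCN and NFIX values at time 1, and their part in them was not tested.

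The genes whose condition means followed each member most closely were named by Pearson r over the 26 conditions, which share arrays, slides and the step at birth. For GLI3 they were DSEL (0.989), MACROH2A2 (0.988) and FAM110A (0.987), and the most opposed was LRRC39 (-0.990). For GLI1 they were MAGED1, EDN3 and DAP (0.984 to 0.981), with PSME3 most opposed (-0.990). For MYCN they were CDT1, USP11 and MAGED2 (0.987 to 0.983), again with PSME3 most opposed (-0.987). For SOX9 they were MYL4, the fetal and atrial myosin light chain (0.981), ANKRD50 and MBOAT2, with PLAA most opposed (-0.983).

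On the other side NFIX by A_73_106741 was followed by MLXIP (0.976), CLCN1, the chloride channel of skeletal muscle (0.975), and PDPK1, and by A_73_110122 by DET1, CLCN1 and HDHD3, so CLCN1 was named by both probes. GINS3 (-0.973), a replication factor, and ERLIN2 (-0.964) were the most opposed. NFE2L2 was followed by SBDS (0.976), a ribosome maturation factor, GOLGA1 and PFKFB4, and opposed by SPATS2 (-0.978). PTCH1 was followed by ZSCAN12 at 0.870, the lowest of these leading values. Among the members, MYCN with GLI1 (0.979), MYCN with SOX9 (0.976) and GLI1 with SOX9 (0.969) were above GLI3 with each of the 3 (0.909 to 0.924), and NFE2L2 was at -0.932 to -0.947 with all 4. Such values are common here, since 3.27 to 8.35% of all features correlated above 0.9 with a given member other than PTCH1.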

How the data were processed

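Total RNA of longissimus dorsi biopsies was labelled with Cy3 and Cy5. The scanner files that the authors deposited give unnormalised foreground and background intensity of both colours, with flags, from Agilent Feature Extraction 9.5.1 (submitters' processing notes). The deposited series table holds log10 ratios of Cy5 over Cy3, equal to those of the scanner files (0 values differed by more than 1e-06). No value depends on a genome build, and the build behind the array's probes was not given in the sources used here.

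Background was corrected by normexp (offset 50) in limma 3.58.1 (R 4.3.3), followed by loess within and Aquantile between arrays. Control spots and outlier spots (2 to 797 an array) had weight 0 and outlier spots were left out. Spots of a probe were averaged. A probe was kept when well above background in at least 24 of 96 channels. Each member probe was 1 feature and other genes were the mean of their probes. The 14693 features gave 1 value per animal, so the number of animals limits the precision. Groups, animals and dyes came from the labels. For list genes in the stage contrast the dye effect was not removed; elsewhere it was, within each experiment. Tests were limma's moderated test, two-sided, with Benjamini-Hochberg adjustment over all features, and the scripts were tested on simulated data. P-values measure the spread between animals. In the stage contrast the fetuses of all ages form 1 group, so that spread also holds changes with fetal age. Members and lists were chosen with earlier results of these data known. All members were named, with up to 3 rises and 3 falls of each list past an adjusted p of 0.05, up to 5 list genes a cross or diet comparison, and the 3 most alike and 1 most opposed gene of each member; HHIP, MYF5, SOX10, SHH, IHH, DHH, SCX, COMP, MYH7, DES, COL11A2, COL9A2 and MKX were named in addition, after their values were seen. Probes whose gene number and description disagree entered no list. A gene of the hedgehog receptor list is not reported here. Samples are paired by the array they share, and 0 columns stayed unmapped. Alternatives were subtraction, median centring, quantile normalisation, other filters, the brightest probe, the dye effect kept, the array as a block, the deposited log ratios and each animal left out. Added after seeing the data were newborns as prenatal, a prenatal age left out and Piedmontese fetus 5 left out.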

Additional observations from a re-analysis of the deposited data

Results flagged for a closer look

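In 10 of 112 groups of 4 animals 1 animal lay far from the other 3, where chance flags about 1 in 20 groups. GLI1 was high in Piedmontese animal 5 at 3 months (7.39, others 7.32) and at 7 months (7.51, others 7.24 to 7.27). SOX9 was high in Piedmontese animal 2 at 25 months (8.45, others 7.79 to 7.87). NFE2L2 was high in growth animal 1 at diet time 1 (11.94, others 11.65 to 11.69). NFIX by A_73_106741 was low in Piedmontese animal 2 at 12 months (7.93, others 8.12 to 8.14), in Piedmontese animal 1 at 30 months (7.97, others 8.21) and in growth animal 3 at diet time 0 (7.66, others 7.87 to 7.89), and high in growth animal 2 at diet time 1 (8.35, others 7.91 to 7.95). By A_73_110122 it was low in Piedmontese animal 5 at 20 months (7.99, others 8.23 to 8.27) and high in Wagyu animal 3 at 25 months (8.20, others 7.89 to 7.92).

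In 9 of 296 pairs of ages every array of 1 age had the crosses differ one way and every array of the other age the opposite way, and none of these differences was tested. For GLI3 the Piedmontese minus Wagyu difference at 135 days exceeded that at birth by 0.52 and that at 12 months by 0.65, and the difference at 195 days exceeded these by 0.35 and 0.49. For GLI1 the difference at 135 days exceeded that at 195 days by 0.63 and that at birth by 0.41. For NFIX by A_73_106741 the differences at 135 and 195 days minus that at birth were -0.15 and -0.14, and by A_73_110122 birth exceeded 12 months by 0.31.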

How the results depend on the processing

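Of 919 differences of members in the cross and diet comparisons recomputed under an alternative, 875 moved by less than 1 standard error, 43 moved further and 1 passed: MYCN in the change of diet without restricted animal 4, so leaving out animals gave 0 to 1 member probes called there. Counts over all features were less stable. At diet time 0 the 163 calls became 81 with subtraction, 54 with median centring, 71 with quantile normalisation, 27 with the deposited log ratios and 0 with the array as a replicate block (2342 at an unadjusted p under 0.05, limma), and leaving out 1 animal gave 31 to 116, with all but growth animal 1 moving it over 1.5 times. At time 1 leaving out 1 animal gave 790 to 2002 of 2215, over 1.5 times lower without growth 1 or 3 or restricted 2 or 4. In the change it gave 495 to 1140 of 1600, over 1.5 times lower without any animal but restricted 4, and 831 with the dye effect kept. The change had 778 higher and 822 lower calls, and 1132 and 321 with median centring. The cross after birth had 9 calls with the array as a block and 2 with the deposited log ratios. Leaving out 1 animal gave 0 to 1 calls in each cross comparison (1 without Piedmontese 2 before birth, Wagyu 2 at birth, and Piedmontese 2 or 4 after birth). The block changed no member's call. An array block at diet time 2 was not run. The causes were not tested.

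Post-natal minus prenatal levels with newborns counted as prenatal were -1.24 for SOX9, -1.23 for MYCN, -1.05 for GLI1, 0.72 and 0.68 for NFIX and 0.79 for NFE2L2. With subtraction they were -2.16 for MYCN, -1.96 for GLI1 and 1.09 and 1.08 for NFIX. That of PTCH1 turned from -0.15 to 0.0233 with median centring, which moved the median of all features from 0.02 to 0.12, and the other members kept their direction of this difference. Under median centring 0 of the 3 genes named as most alike to MYCN, and 1 of 3 each for GLI1, PTCH1 and NFIX by A_73_110122, were among its 100 highest. Dim signal limits PTCH1, the post-natal levels of GLI1 and MYCN and the fetal levels of NFIX.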
